A study of Arabidopsis thaliana with 4 samples.

Results

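Major latex protein (MLP) genes encode small soluble proteins of the Bet v 1 family, named after the main birch pollen allergen. Proteins of this fold enclose a hydrophobic cavity that can hold plant hormones, lipids and other small hydrophobic molecules. The best understood relatives are the PYR/PYL abscisic acid receptors, which close over the hormone and then bind protein phosphatases, and the pathogenesis-related PR-10 proteins. MLP genes were first described in the latex of opium poppy. In cucumber relatives MLPs carry hydrophobic compounds through the xylem, while individual roles of the loci described here are not well established.

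The account covers 10 Arabidopsis thaliana MLP loci, each read by 1 probe set, among 13286 loci with a probe set annotated to them alone. They were chosen by family membership, with the add3-to-wild-type differences of these same arrays already known and with AT4G23680 among the largest rises. The difference between the groups is therefore a description of these loci and not a test of the family.

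RNA came from the above-ground parts of young seedlings (developmental stage 1.02), with cotyledons, hypocotyls, meristems and the first pair of true leaves. Seeds spent 4 days at 4 °C on soil mix, and all plants then grew at 29 °C under 24 h light. The add3 group (ARRESTED DEVELOPMENT 3) carried an EMS-induced mutation in the Col-3 gl1 background, in which gl1 is a mutation that leaves plants without leaf hairs. Wild-type plants were Col-0, and so an effect of the mutation and one of the accession or of gl1 cannot be told apart. The add mutants are known for shoot development that stops at high temperature, but plants at another temperature were not analysed here. Each group had 2 samples, each hybridised to 1 Affymetrix ATH1 array. Nothing in the labels says whether the 2 samples of a group came from separate plantings, so the spread between them may be technical. In RNA from all these parts together, fewer cells of a type and less RNA per cell cannot be told apart.

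The values are MAS5 signals, brightness on a linear scale that the authors had scaled as a whole on each array. The background level of an array was taken as its brightest bacterial control that read as unspiked. In add3 it was 25.4 for replicate 1 and 12.3 for replicate 2, and in wild type 20.5 for replicate 1 and 13.0 for replicate 2. In the annotation used, 8730 of 22746 non-control probe sets had no gene listed, so further marker genes may have probe sets not read here. Of 15 leaf and cotyledon markers 2 had a probe set assigned to them alone, the Rubisco activase gene AT2G39730 and the photosystem I gene AT5G64040. Both were bright on all 4 arrays. AT2G39730 read 3086 and 3537 in add3 and 3521 and 3068 in wild type, with overlap. AT5G64040 read 2140 and 2119 in add3 and 1468 and 1729 in wild type, without overlap. Its difference did not pass the threshold used below (limma adjusted p = 0.0793). The 1 shoot meristem marker of 9 with such a probe set, AT2G27250 (CLAVATA3), exceeded background on 1 wild-type array. It read 2.54 and 1.56 in add3 and 21.7 and 3.97 in wild type. The 1 leaf hair marker of 10, AT5G53200, exceeded background on 1 add3 array. It read 15.0 and 20.0 in add3 and 10.4 and 3.16 in wild type. For both markers the groups did not overlap, but the signals were too dim to be tested. The 2 root markers of 15 with such a probe set are root hair expansin genes. AT1G12560 read 12.1 and 5.87 in add3, under background on both arrays, and 26.8 and 17.9 in wild type, above it on both. AT1G62980 read 30.4 and 31.5 in add3 and 5.16 and 29.0 in wild type. The groups did not overlap for either, the former being lower and the latter higher in add3, and their summed signals were 42.5 and 37.4 in add3 and 32.0 and 46.9 in wild type. Neither was bright enough to be tested, and the part of root tissue in the results was not tested.

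The 10 loci fell into 4 groups of adjacent genes and 1 single gene. In the gene order of the TAIR10.1 assembly no other protein-coding locus lies inside a group. AT4G23670 and AT4G23680 are neighbours on chromosome 4, AT1G23120 and AT1G23130 on chromosome 1, AT3G26450 and AT3G26460 on chromosome 3, and AT1G14940, AT1G14950 and AT1G14960 follow each other on chromosome 1. AT4G14060 stands alone on chromosome 4.

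AT4G23680 was the member with the clearest separation. Its signals were 500 and 487 in add3, against 111 and 116 in wild type. The mean rose from 114 ± 3.49 in wild type to 494 ± 9.29 in add3 (SD, n = 2 in each group, as below), a ratio of 4.34. On the log2(signal + 12.5) scale the difference was 2.00 with an SE of 0.12, and the 4 pairings of an add3 with a wild-type array gave 1.96 to 2.05. This was the rise ranked 2 among 13648 tested probe sets, and 12 probe sets had a larger difference in either direction. The replicates lay 0.04 apart in add3 and 0.06 apart in wild type on the log2 scale. A larger replicate gap was seen for 85.2% of tested probe sets in add3 and 83.2% in wild type, so both pairs of arrays were close for this gene.

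Its neighbour AT4G23670 did not show this difference. It read 1686 and 1825 in add3, against 1736 and 1676 in wild type. The groups overlapped, with means of 1755 ± 98.4 in add3 and 1706 ± 42.7 in wild type. The log2 difference was 0.04 with an SE of 0.11, and it was -0.022 with quantile normalization and -0.017 without add3 replicate 2. A larger difference was seen for 90.2% of tested probe sets.

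The ratio between these neighbours can be followed from array to array, because both were far above background everywhere. The log2 ratio of AT4G23680 to AT4G23670 was -1.73 and -1.88 in add3, against -3.82 and -3.71 in wild type. It changed by 1.96 between the groups, with 1.83 to 2.09 over the 4 pairings, while replicates differed by 0.15 in add3 and 0.11 in wild type. The change of the ratio was larger than either replicate gap. With 2 arrays against 2, an exact permutation test cannot give a two-sided p below 0.333. The change of the ratio is the log2 difference of AT4G23680 less that of AT4G23670, so it restates their unequal change and adds no separate support. The ratio does not compare the levels of the neighbours, since different probe sets have different brightness per transcript. Whether either probe set also takes up transcript of the other gene was not tested.

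**Figure D1:**
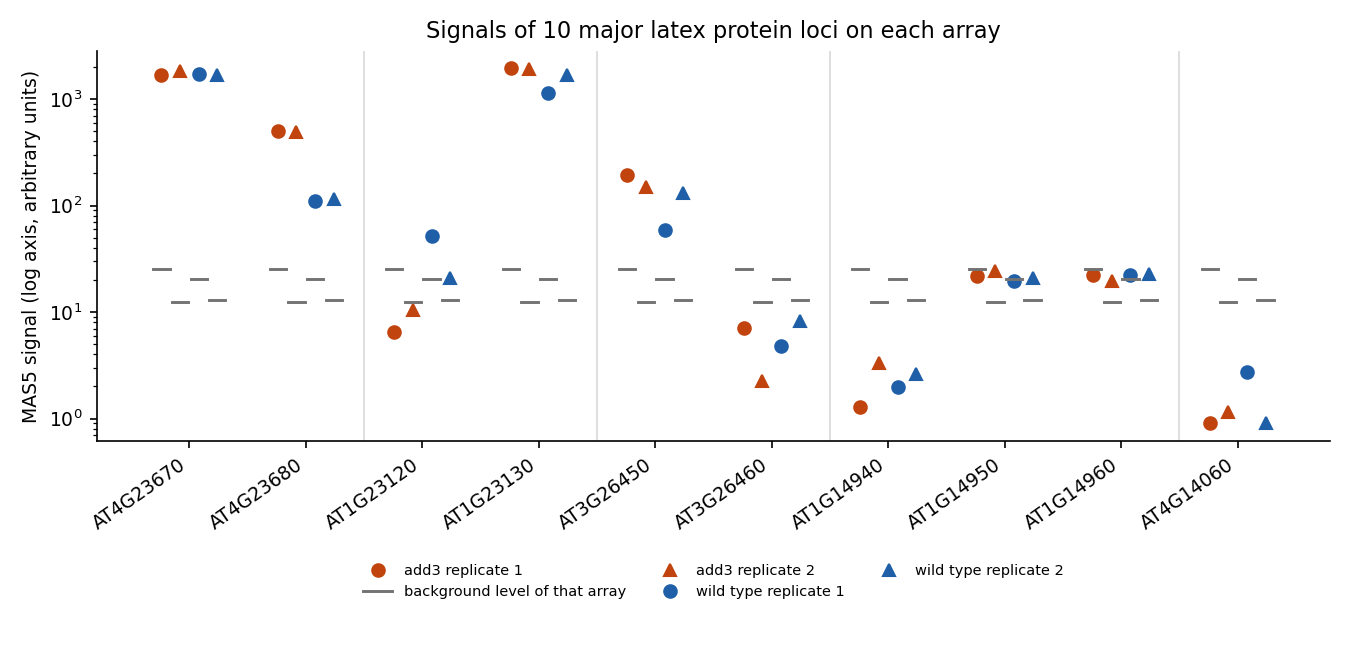
MAS5 signal (log axis) of the 10 loci on each of the 4 arrays, with adjacent loci between vertical lines and a grey bar at the background level of each array. AT4G23680 lies at 487 to 500 in add3 and 111 to 116 in wild type, AT4G23670 stays near the same height on all 4 arrays, and AT3G26460, AT1G14940 and AT4G14060 lie under the background level on every array.

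AT1G23130 was bright on all arrays and somewhat higher in add3. Its signals were 1935 and 1931 in add3 and 1136 and 1672 in wild type. The groups did not overlap, but most of the spread lay between the wild-type arrays, with means of 1933 ± 2.87 in add3 and 1404 ± 379 in wild type. The log2 difference was 0.48 with an SE of 0.18, with pairings from 0.21 to 0.76. The wild-type arrays lay 0.55 apart on the log2 scale, more than the difference between the groups, and a larger wild-type gap was seen for 7.20% of tested probe sets. The add3 arrays were almost equal, and 98.7% of tested probe sets had a larger gap there.

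The neighbour AT1G23120 went the other way at low signal. It read 6.42 and 10.4 in add3, under the background level on both arrays, and 51.3 and 20.9 in wild type, above it on both. The groups did not overlap, and the wild-type arrays differed by 0.94 on the log2 scale. Set against the background level, the add3 signal was at least 1.85-fold lower. That limit rests mainly on wild-type replicate 1. It was 1.18-fold without that array and 1.29-fold without add3 replicate 2, and the wild-type replicate 2 signal of 20.9 lay under the background level of 25.4 on add3 replicate 1. This locus was too dim to be tested in the main fit. With no filter on low signals it did not pass the threshold (limma adjusted p = 0.183). Against wild-type replicate 2 alone its log2 difference was -0.68 in place of -1.15.

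AT3G26450 was the remaining member above background on all 4 arrays. Its signals were 193 and 150 in add3 and 58.9 and 131 in wild type. The groups did not overlap, yet wild-type replicate 2 came close to the add3 arrays, and the means were 172 ± 30.6 in add3 and 95.1 ± 51.1 in wild type. The log2 difference was 0.85 with an SE of 0.31, and the pairings ranged from 0.18 to 1.53. The gap of 1.01 between the wild-type arrays exceeded the difference, and 0.733% of tested probe sets had a larger one. Its neighbour AT3G26460 read 7.15 and 2.24 in add3 and 4.79 and 8.31 in wild type, under background on every array.

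The differences of AT1G23130 and AT3G26450 depended on which wild-type array was used. Without wild-type replicate 1 their log2 differences were 0.21 and 0.35. Without wild-type replicate 2 they were 0.76 and 1.36. With 1 wild-type array left, the gap between the wild-type arrays no longer enters the fit. Wild-type replicate 1 also held the lowest signal of AT1G23130 and of AT3G26450 and the highest of AT1G23120. The 3' to 5' signal ratio of actin controls, which moves with RNA integrity, was 4.49 on this array, 2.71 on wild-type replicate 2 and 3.10 and 3.17 on the add3 arrays. Its 5S ribosomal RNA control read 182, against 78.0 on wild-type replicate 2 and 39.5 and 38.0 in add3. The 25S control did not set this array apart. It read 45.7 there, 105 on wild-type replicate 2, and 43.1 and 118 on add3 replicates 1 and 2. The part of RNA quality in these values was not tested.

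**Figure D2:**
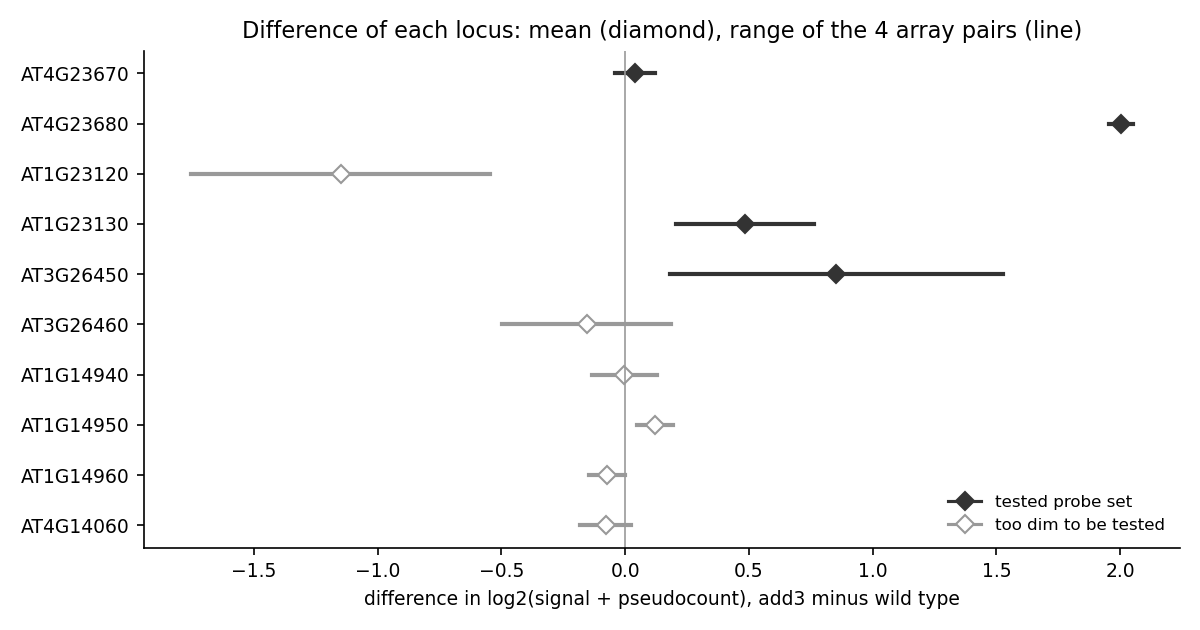
Difference in log2(signal + 12.5), add3 minus wild type, for each locus, with the mean as a diamond and the range of the 4 pairings of arrays as a line. AT4G23680 stands at 2.00 with a short line, AT3G26450 and AT1G23130 lie above 0 with long lines, and AT1G23120, an open symbol because it was too dim to be tested, lies below 0.

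**Figure D3:**
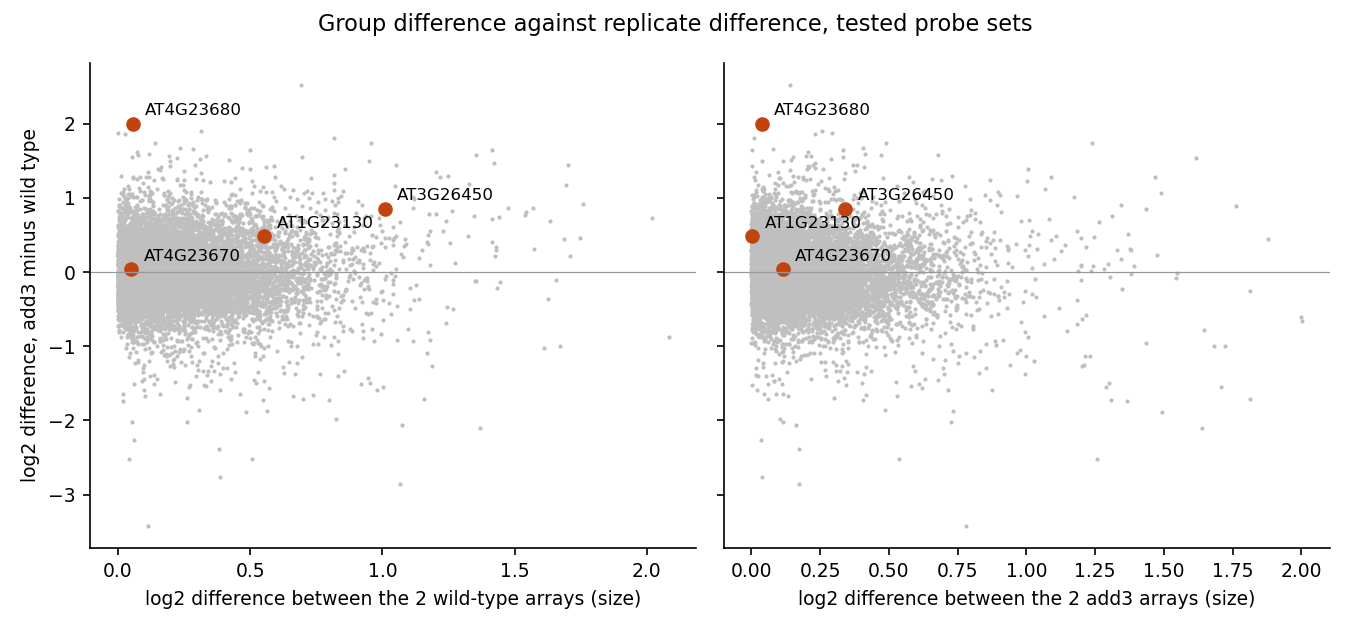
Difference between the groups (vertical axis, log2, add3 minus wild type) against the size of the log2 difference between the replicates of wild type (left) or add3 (right), for 13648 tested probe sets in grey and the 4 tested MLP loci in red. AT4G23680 combines a difference of 2.00 with replicate gaps of 0.06 and 0.04, while AT3G26450 and AT1G23130 have wild-type gaps of 1.01 and 0.55.

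The remaining loci gave little signal. In the group of 3 neighbours, AT1G14940 read 1.29 and 3.34 in add3 and 1.99 and 2.65 in wild type, under background on every array. AT1G14950 read 21.8 and 24.1 in add3 and 19.5 and 20.8 in wild type, and exceeded background on 1 array of each group. AT1G14960 read 22.2 and 19.4 in add3 and 22.2 and 22.8 in wild type. AT1G14950 was higher and AT1G14960 lower in add3 on all 4 pairings, but the log2 differences were 0.12 and -0.07, close to background level, and carry no usable size. AT4G14060, the single gene, read 0.899 and 1.15 in add3 and 2.71 and 0.916 in wild type. A difference in these loci was not detectable at these signals.

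Over the whole comparison, 569 probe sets rose (4.17%) and 428 fell (3.14%) among 13648 tested, by limma at an adjusted p under 0.05. Rises were 57.1% of the calls, and 74.5% when all arrays were brought to 1 median. Of the 10 loci 4 were bright enough to be tested. AT4G23680 passed as a rise, no member passed as a fall, and AT4G23670, AT1G23130 and AT3G26450 did not pass. Both add3 arrays lay above both wild-type arrays for 3 of these 4 loci and below them for 0, while over all tested probe sets this was so for 24.8% and 32.3%. The median log2 difference of the 4 was 0.67, against -0.05 over all tested probe sets. The choice of the family rests on this same comparison, so nothing is read from these counts.

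The genes around the groups were read alongside the MLP loci of the same stretch of chromosome. The nearest tested loci on each side of AT4G23670 and AT4G23680, each 5 protein-coding loci away, were AT4G23620 and AT4G23730. Their log2 differences were -0.01 (SE 0.14) and 0.22 (SE 0.15), and neither passed the threshold. AT1G23040 and AT1G23180 beside the second pair gave -0.30 and -0.22, and AT1G14910 and AT1G14990 beside the group of 3 gave -0.17 and 0.22. AT4G14020 and AAE15 (AT4G14070, an acyl-activating enzyme gene) beside AT4G14060 both gave 0.23. AT3G26380 before AT3G26450 gave -0.08. None of these passed the threshold.

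AT3G26510, 5 loci beyond AT3G26460, was the exception among the flanking genes. Its signals were 322 and 364 in add3 and 705 and 641 in wild type, with no overlap. AT3G26450 in the same stretch lay higher in add3, but did not pass the threshold, and its wild-type arrays lay further apart than the groups. AT3G26510 fell by 0.95 on the log2 scale (SE 0.13, limma adjusted p = 0.0128), opposite in sign to that difference. With no filter on low signals its adjusted p was 0.0511, and over the other alternatives it was 0.00138 to 0.0356.

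**Figure D4:**
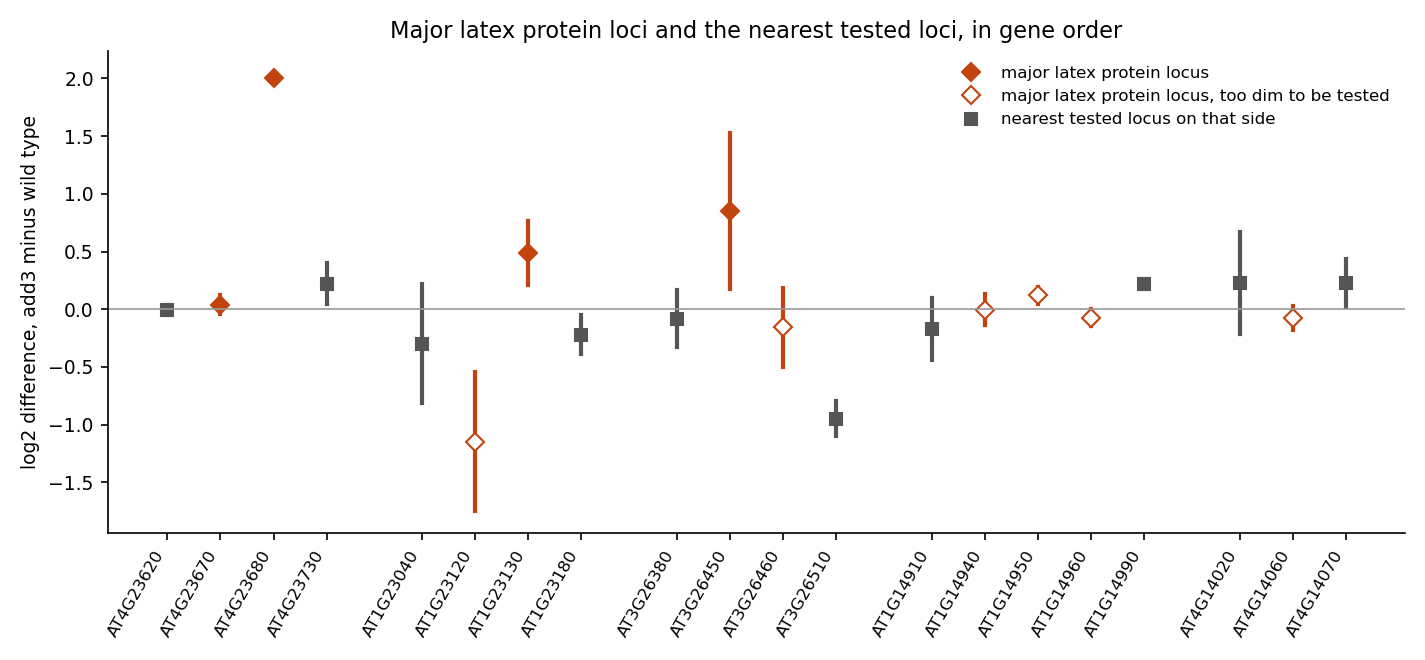
Log2 difference, add3 minus wild type, of the MLP loci (red diamonds, open where too dim to be tested) and of flanking loci (grey squares). Flanking loci are the nearest on each side with a tested probe set annotated to 1 gene. Loci are in gene order within each group, with the range of the 4 pairings as a line. AT4G23680 stands at 2.00 between neighbours near 0. AT3G26510 lies at -0.95 and AT3G26450 at 0.85, with AT3G26460 between them.

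Of 18 further MLP loci in Arabidopsis, 7 had a probe set read as that gene alone in the annotation used, and none was bright enough to be tested. AT1G70870, AT1G70880, AT1G24000, AT1G24010, AT1G14930 and AT1G30990 were under background on every array. AT5G28010, named after its values were seen, read 17.1 and 13.2 in add3 and 27.1 and 16.2 in wild type, above background on 1 add3 and 2 wild-type arrays. AT1G14930, which precedes AT1G14940, read 1.60 and 1.90 in add3 and 13.1 and 0.972 in wild type. Among MLP loci that could be read, signal far above background was therefore seen at AT4G23670, AT4G23680, AT1G23130 and AT3G26450. Of 14 PYR/PYL receptor genes 0 had such a probe set, so the receptors were not analysed here.

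The genes whose pattern was most like that of AT4G23680 were found by the root mean square difference of log2 signals centred on the wild-type mean, over 4 arrays and 7333 candidate probe sets. The nearest was the pectin methylesterase gene ATPMEPCRB (AT4G02330), at a distance of 0.25, with signals of 257 and 180 in add3 and 52.5 and 59.1 in wild type. The response regulator gene RR16 (AT2G40670), which acts in cytokinin signalling, followed at 0.28, with 174 and 150 against 45.4 and 42.6. AT1G60590 and AT5G12110 were at 0.30 each, and AT5G28500 at 0.34. Their log2 differences ran from 1.56 to 1.80, all under the 2.00 of AT4G23680. Likeness over 4 arrays in 2 groups mostly reflects the size of the difference.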

How the data were processed

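Groups and replicate numbers came from sample titles. The deposited intensity values are 1 MAS5 signal per probe set and array, which per the submitters' processing notes the authors computed in MAS5. Its version is not stated in these sources, and detection calls were not used here. Of 22810 probe sets 64 were controls. The platform annotation listed no gene for 8730 of the rest and 1 gene for 13513. Of the latter 13436 matched the TAIR10.1 gene table by gene ID, which also gave gene order.

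A pseudocount of 12.5 (0.25 of the median signal, 50.1) was added before log2, so that changes of dim genes are understated. The filter kept 13648 probe sets whose mean signal reached 33.2 (percentile 40). They were fitted together in R 4.3.3 by limma 3.58.1 with lmFit and a trended eBayes, leaving 2 residual degrees of freedom. Its two-sided p-values were adjusted by Benjamini-Hochberg over all of them. The procedure was tested on simulated data. Background was the highest of 27 bacterial controls. For a locus under it on both arrays of 1 group and above it on both of the other, the ratio was taken from the mean log2 signal of the brighter group to the mean log2 background level. The number of arrays limits the precision.

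The members and lists were chosen with earlier results of these data known. Flanking loci were the nearest on each side of each group with a tested probe set annotated to 1 gene. Named genes were all 10 members, these flanking loci and the 5 nearest profiles to AT4G23680. Members of the lists of other MLP and PYR/PYL genes were to be named where past the threshold. No gene of these last lists was tested, so the 7 other MLP loci with a probe set were named after their values were seen, and the marker genes with a probe set are named as well. Promoter and protein sequences were not used here. Alternatives were a pseudocount of 1, no filter, median scaling, quantile normalization, a replicate block and leaving out each array.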

Additional observations from a re-analysis of the deposited data

How the results depend on the processing

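AT4G23680 was past the threshold under every alternative run, with log2 differences of 1.98 to 2.11. The count of called MLP loci was 1 under every alternative except the 2 that follow. It ranged from 1 to 3 on leaving out an array, with 3 without wild-type replicate 2. With 1 array left in a group, the spread of that group no longer enters the fit. Replicates of the same number did not deviate together (correlation of the replicate differences over probe sets, r = -0.12). A crossed replicate block, added after the data were seen, called 1909 probe sets and 3 MLP loci. The replicate block by number called 878 probe sets, against 997 without it, and 1 MLP locus. With no filter on low signals, limma tested 22746 probe sets and called 13, of which 5 were higher and 8 lower in add3, and AT4G23680 was among them. Before adjustment 4143 had a p under 0.05. AT3G26510 and the 5 genes of similar pattern lost their calls there (limma adjusted p = 0.0511 to 0.0652). Leaving out an array gave 437 to 817 calls, with 437 and 500 without add3 replicates 1 and 2 and 564 without wild-type replicate 1. Signs turned at small differences past no threshold. AT4G23670 had 0.04 and became -0.022 with quantile normalization, and -0.017 to 0.097 on leaving out an array, lowest without add3 replicate 2. AT4G23620 had -0.01 and became 0.079 with median scaling, 0.056 with quantile normalization and -0.044 to 0.032 without 1 array, highest without add3 replicate 1. AT3G26380 had -0.08 and became 0.0082 with median scaling and -0.32 to 0.16 without 1 array, highest without add3 replicate 2. AT1G23040 (-0.81 to 0.21) turned without add3 replicate 2, and AT4G14020 (-0.084 to 0.54) without wild-type replicate 1. The causes were not tested. A pseudocount of 1 moved AT1G23120 from -1.15 to -1.88. The limit for AT1G23120 was 1.18 to 2.90-fold lower without 1 array, an alternative added after the data were seen. Low signal left 6 of the 10 loci untested, AT1G23120 with a limit in place of a size.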
